A study of Mus musculus with 2 samples.

Results

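In the PyMT-M (High-MAC) library, a group of tumor cells was chosen for RNA of genes that include Cdh5, which encodes the endothelial junction protein VE-cadherin (CD144), and Il24, a cytokine gene of the IL-20 subfamily, in cells gated to hold at most 1 UMI of 4 other endothelial genes. Its members were chosen in 2 steps. Barcodes with at least 2000 detected genes and at most 10% mitochondrial UMIs (unique molecular identifiers, the molecules counted) were gated to at most 1 UMI of Pecam1, Emcn, Flt1 and Kdr summed, at most 1 UMI of Ptprc, Tyrobp and Laptm5 summed, and less than 3000 CPM (a gene's UMIs on the usual counts-per-million scale, over the total UMIs of the cells) of Col3a1. Of 5224 gated cells, the 644 with at least 2 of the rule genes Gm43154, Nptx1, Il24 and Cdh5 detected were kept (rule-gene cells), which is 12.3% of the gate and 8.23% of the 7821 barcodes of the library. The 1754 gated cells with none of the 4 were the reference (rule-negative cells). Both libraries of the series together held 14795 barcodes.

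PyMT-M and PyMT-N are sublines of the MMTV-PyMT mammary tumor model on the C57BL/6 background, which the study classes as High-MAC (macrophage-enriched) and Low-MAC. Tumors grew in the mammary fat pad of female C57BL/6 mice (C57BL/6NHsd in the methods) that were 6 to 8 weeks old and cells of 3 tumors were pooled per model, so each model has 1 library and no spread between animals can be given. The cells had been depleted of CD45+ and Ter119+ cells, enriched on beads with antibodies to CD31 and CD144 and sorted as CD31+ CD144+ DAPI- cells, so every cell described here had been selected for these endothelial surface proteins. Intervals below are exact 95% intervals that cover counting error only. No difference was tested, because cells of 1 library are not replicates. The rule genes were picked from these same cells, so every gene difference between rule-gene and rule-negative cells is a description.

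Cdh5 is a gene of endothelium, where VE-cadherin joins neighbouring cells through catenins and where ETS-family factors such as ERG, FLI1 and ETS1 drive the gene. Il24 codes for a secreted cytokine that signals through JAK and STAT3 and is made by stressed or inflamed epithelium and some immune cells. Nptx1 encodes a secreted neuronal pentraxin, and Gm43154 is a long noncoding RNA gene of unknown function. Sorting on surface CD31 and CD144 is a standard way to enrich endothelium from a dissociated tumor.

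The PyMT-M library held 141067264 UMIs and the PyMT-N library 116150425, with medians of 18790 and 15878 UMIs per barcode. They shared 20 barcodes, of which 2 were rule-gene cells. Rule-gene cells were deeper than the reference, with a median of 26318 UMIs and 5204 detected genes against 20730 and 4654. Cells with Nptx1 as their sole rule gene (2752 Nptx1-only cells) had a median of 25450 UMIs, close to that of rule-gene cells, and serve as a second reference below. Median mitochondrial shares were 1.91% in rule-gene cells and 2.08% in rule-negative cells. Thinning every gated cell to 10000 UMIs left out 287 cells, 18 of them rule-gene cells and 173 rule-negative, and 8.20% of the remaining 4937 still held at least 2 rule genes. The PyMT-N library, gated alike, held 1 such cell among 3688 (0.0271%, interval 0.000686 to 0.151%).

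Cdh5 and Il24 were the rarer of the rule genes among the cells, which are therefore called by their rule. Nptx1 was detected in 629 of the 644 rule-gene cells (97.7%), Gm43154 in 520 (80.7%), Cdh5 in 295 (45.8%) and Il24 in 168 (26.1%). Cdh5 and Il24 were detected together in 57 cells (8.85%). Nptx1 was also broad in the gate, at 64.7% of all gated cells. Gm43154, Cdh5 and Il24 were detected in 10.5%, 6.34% and 3.43% of gated cells. The PyMT-M tumor markers Kcnq5, Gm30835 and Rhox5, taken from earlier results of these data, stood at 688, 306 and 586 CPM in rule-gene cells and at 478, 271 and 709 CPM in rule-negative cells. In gated PyMT-N cells their summed level was 15.1 CPM, against 1580 CPM in rule-gene cells.

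Of Cdh5 and Il24, Cdh5 was the more evenly spread. Its 447 UMIs lay in 295 cells with at most 9 in any cell, and the 32 cells with the most held 26.0% of them. Il24 gave 573 UMIs in 168 cells, with up to 76 in a cell, and 64.7% of them lay in 32 cells. Gm43154 and Nptx1 had medians of 3 and 4 UMIs per cell, and their top 32 cells held 19.4% and 17.3%. Of the 4 rule genes, Il24 was the one concentrated most in few cells.

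The rule genes were picked from these same cells as genes that mark them together, so their joint detection is given as a description. Among gated cells with at least 2 of the other 3 genes, Cdh5 was detected in 215 of 564 (38.1%, interval 34.1 to 42.3%), against 2.79% of cells with exactly 1 of them and 2.01% of cells with none. Its summed level was 22.3 CPM (interval 20.1 to 24.8) in the first set and 1.20 CPM in the last. After thinning to 10000 UMIs the shares were 20% and 1.10%. Il24 was detected in 19.3% of cells chosen by at least 2 of the other genes and in 0.623% of cells with none of them, and Gm43154 in 68.4% and 1.52%. Nptx1 went from 61.1% to 94.8%. The level of 1.20 CPM of Cdh5 in cells with none of the other genes lay below the 1.99 CPM (interval 1.70 to 2.32) measured in gated PyMT-N cells, where 3.77% of cells had a Cdh5 UMI. None of the 95 immune cells of the PyMT-M library, which should lack the gene, held a Cdh5 UMI (upper bound 3.81%), at a median of 3397 UMIs. The immune cells were far shallower than the gated cells, so this bound is no background level for the gated cells. The shares of 2.79% and 2.01% lie under the PyMT-N share and are not read as expression.

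Detection of Cdh5 RNA in cells that had passed the CD144 sort is given as a share. Every cell had passed it, so the shares cannot show whether the RNA went with passage. Of 5224 gated PyMT-M cells, all of which had been sorted as CD144+, 331 (6.34%, interval 5.69 to 7.03%) held a Cdh5 UMI and 4893 (93.7%) held none. Among rule-gene cells 45.8% held one, at a median of 26318 UMIs, a share that follows in part from Cdh5 being a rule gene. In endothelial cells of the same library (at least 10 UMIs of Pecam1, Emcn, Flt1 and Kdr, at most 1 immune UMI and at least 500 genes, 584 cells), Cdh5 was detected in 96.4% at a median of 5970 UMIs. Surface protein was not measured in these files, so how the cells passed the sort was not tested.

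Genes of other proteins that the sorting antibodies can bind had the following levels. Pecam1, which codes for CD31 and which the gate caps, stood at 1.37 CPM in rule-gene cells, 1.85 CPM in rule-negative cells and 889 CPM in endothelial cells. Of the Fc receptor genes, which bind antibody stems, 3 of 6 had enough UMIs to compare, none was at least 1.5-fold higher and 1 was lower over rule-negative cells. Over all 12501 genes compared, 8.26% were at least 1.5-fold higher and 9.74% lower, with a median log2 ratio of -0.09, so nothing is read from 3 genes. Over Nptx1-only cells 6.81% of all genes were higher and 9.31% lower. Fcgr2b, which is bound by the blocking antibody used before the beads, gave 15.6 CPM in rule-gene cells, 17.7 in rule-negative cells and 24.9 in Nptx1-only cells. Fcgrt, which binds antibody inside cells, gave 32.6, 53.3 and 57.3 CPM. Fcgr4 gave 0.822, 0.707 and 0.248 CPM, but its 15 UMIs against 18 in Nptx1-only cells were too few to compare over that reference. Fcgr2b and Fcgrt were lower over Nptx1-only cells. The median log2 ratio of the 3 over rule-negative cells was -0.18.

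Endothelial genes were at differing shares of their level in endothelial cells. Cdh5 is a rule gene and the gate limits endothelial UMIs, so these shares describe the chosen cells and are no test of a source of the RNA. The 24.5 CPM (interval 22.3 to 26.9) of Cdh5 in rule-gene cells was 3.66% of the 669 CPM in endothelial cells. Of 25 further endothelial markers, 22 were at a smaller share of their endothelial level and 3 at a larger one, namely Eng (9.70%), Ramp2 (11.7%) and Ecscr (14.8%). Eng gave 60.4 CPM in rule-gene cells against 58.7 in rule-negative cells. Plvap, the diaphragm protein of fenestrated endothelium, was at 0.0755% of its endothelial level, Cldn5, a tight junction claudin, at 0.0463%, and Gpihbp1, which carries lipoprotein lipase in capillaries, at 0.0474%. Emcn, Sox17 and Clec14a had no UMI in the 644 cells. Plvap and Gpihbp1 stood at 0.603 and 0.493 CPM in rule-gene cells, and at 0.897 and 0.680 CPM in rule-negative cells. Whether part of the endothelial RNA was free RNA or came from other cells was not tested.

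**Figure D1:**
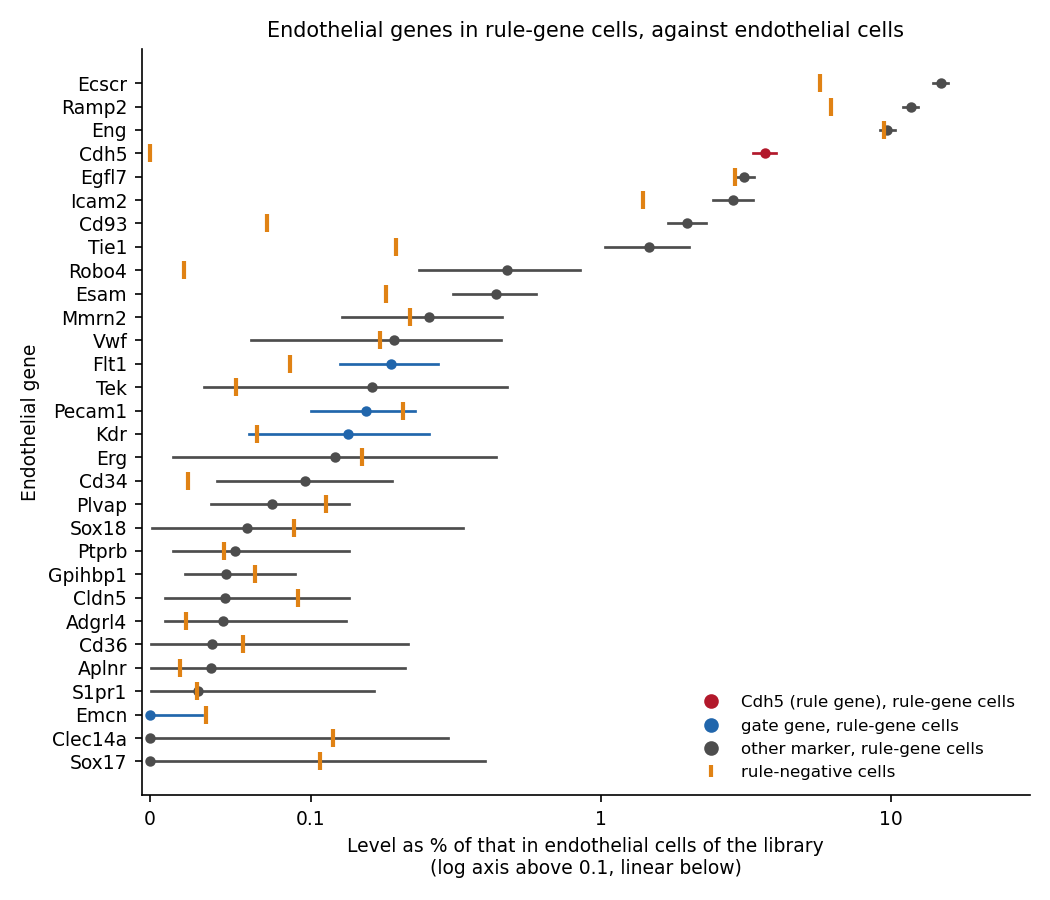
Level of Cdh5, the 4 endothelial gate genes and 25 further endothelial markers in rule-gene cells (points, with exact 95% counting intervals) and rule-negative cells (orange ticks), as a percentage of the level in 584 endothelial cells of the PyMT-M library, on an axis that is logarithmic above 0.1% and linear below. Cdh5 in rule-gene cells lies at 3.66% and is 0 in rule-negative cells by the rule, while the gate genes are limited by the gate and most markers lie under 1%.

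Several endothelial genes were at higher levels in rule-gene cells than in the reference. Of the 25 markers 10 had enough UMIs in both sets together to compare, but Cd93 and Tie1 had them only through the rule-gene cells, where they are high. Of the 8 markers with enough UMIs expected from the reference alone, 4 were at least 1.5-fold higher and none lower, with a median log2 ratio of 0.51. Of all 12428 genes chosen in that way 6.93% were higher and 10.6% lower. Not all of the 8 markers rose: Plvap and Gpihbp1, with 11 and 9 UMIs in rule-gene cells, had log2 ratios of -0.57 and -0.46. Egfl7 and Eng had log2 ratios of 0.10 and 0.04. Cd93, a receptor of endothelium and myeloid cells, stood at 9.59 CPM against 0.353 CPM (log2 ratio 4.76, interval 3.95 to 5.70). Tie1, an orphan receptor kinase of vessels, gave 2.03 against 0.272 CPM, Ecscr, an endothelial signaling regulator, 60.3 against 23.0 CPM, and Icam2 8.66 against 4.21 CPM. Esam, a junction adhesion molecule, gave 2.08 against 0.870 CPM, which is 0.435% of its level in endothelial cells. Counting Cd93 and Tie1, the same genes were higher over Nptx1-only cells, except Ramp2, whose log2 ratio was 0.91 over rule-negative and 0.52 over Nptx1-only cells.

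Of the factors linked to Cdh5, Ets1 and Klf2 were higher. Ets1 stood at 173 CPM in rule-gene cells and 53.9 CPM in rule-negative cells (log2 ratio 1.68), at 52.0 CPM in Nptx1-only cells and at 312 CPM in endothelial cells, and was detected in 581 of the 644 cells. Within the group it was 203 CPM in cells with Gm43154 and 60.7 CPM in cells without it. Klf2, the shear-stress factor of endothelium, was at 377 against 235 CPM. Erg, Fli1, Sox18 and Lmo2 had 2, 4, 1 and 1 UMIs in the 644 cells and Sox17 and Tal1 none, whereas Fli1 reached 326 CPM and Erg 91.0 CPM in endothelial cells. Of 16 factors listed, 7 could be compared: 2 were higher and 3 lower, the latter being Hif1a, Klf4 and Ets2 at log2 ratios of -0.61, -0.80 and -0.87. With enough UMIs expected from the rule-negative cells alone, 8 could be compared and 4 were lower, against 10.6% of all genes chosen alike. That filter adds Epas1, with 1 UMI against 22 in rule-negative cells and 210 CPM in endothelial cells. Of the 7, 3 were higher and 2 lower over Nptx1-only cells. The shares of all genes were 8.26% higher and 9.74% lower over rule-negative cells, and 6.81% and 9.31% over Nptx1-only cells.

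The genes of the partners that tie VE-cadherin to the cytoskeleton were detected in both sets. Of 9 partner genes compared, 1 was higher and 1 lower over rule-negative cells, with a median log2 ratio of -0.18, and none higher and 1 lower over Nptx1-only cells. That is near the 8.26% higher and 9.74% lower of all genes, and nothing is read from it. Vinculin (Vcl) was the higher one, at 111 against 72.3 CPM, and plakoglobin (Jup) the lower one, at 4.93 against 8.48 CPM. The catenin genes Ctnnb1, Ctnna1 and Ctnnd1 gave log2 ratios of 0.15, -0.20 and -0.35. Among other cadherins the GPI-anchored Cdh13 was at 1118 CPM in rule-gene cells and 1058 CPM in rule-negative cells, and Cdh1 (E-cadherin), Cdh2 (N-cadherin) and Cdh3 had 1, 0 and 0 UMIs.

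The genomic neighbours of Il24 were far below it. In the order of GENCODE M21 (a GRCm38 annotation, used here for neighbours only), Il24 lies beside Il20, Il19 and Il10. Il20 had no UMI in rule-gene cells, and Il19 and Il10 gave 1.86 and 1.48 CPM against 31.4 CPM of Il24. In rule-negative cells they were at 1.03 and 0.788 CPM, and in Nptx1-only cells, with no Il24, at 1.81 and 1.67 CPM. Il20ra and Il22ra1, the partner chains of the Il24 receptors, had no UMI, and Il20rb had 3.02 CPM against 3.78 in rule-negative cells. Socs3, a STAT3-induced inhibitor of cytokine signaling, was at 17.5 CPM against 24.1 (log2 ratio -0.46). Of 7 genes of this family and pathway compared over rule-negative cells, 2 were higher, Il10 and Il19, and over Nptx1-only cells none was, against 8.26% and 6.81% of all genes.

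Of the neighbours of the other rule genes, those that overlap Gm43154 had UMIs in rule-gene and none in rule-negative cells. Gm43154 overlaps Gm13848 and Gm13849, long noncoding RNA genes that each had 30 UMIs in rule-gene cells, 1.64 CPM, and no UMI in rule-negative cells. Gm13848 lies on the opposite strand and Gm13849 on the same strand. Podxl, the coding gene next in order and a sialomucin of endothelium, had 2 UMIs, against 135 CPM in endothelial cells, and Mkln1 was at 144 against 163 CPM. Plxna4, which is among the leading genes below, is separated from Gm43154 by 5 listed genes in this order. Beside Cdh5, Bean1 had no UMI in rule-gene cells, and beside Nptx1, Endov and Rptor gave 11.4 and 92.2 CPM against 10.4 and 79.4 CPM.

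The leading genes of the group, ranked by fold among genes with at least 10 UMIs in both sets, were Lcp1, Plxna4, Mmp3, Inpp5d, ENSMUSG00000121513, Pitpnc1, Tmem204, Gem, Inpp4b, Cd93, Rufy4, Dok2, Marchf11, S100a16 and Grap. Of these, Lcp1, ENSMUSG00000121513, Cd93, Dok2 and Marchf11 had 14, 15, 13, 19 and 10 UMIs in rule-negative cells. They had enough UMIs to compare only through the rule-gene cells, where they are high. Each of the 15 leading genes was at least 19.9-fold higher than in rule-negative cells and at least 11.2-fold higher than in Nptx1-only cells. Lcp1, which encodes L-plastin, an actin-bundling protein of leukocytes that carcinomas also use, stood at 63.6 CPM against 0.381 (log2 ratio 7.38, interval 6.63 to 8.26) and was detected in 61.2% of rule-gene cells and 0.741% of rule-negative cells. Plxna4, a semaphorin receptor, gave 39.1 against 0.680 CPM. Inpp5d and Inpp4b, which encode phosphatases of phosphoinositides (SHIP1 and INPP4B), gave 45.9 against 0.897 CPM and 21.4 against 0.788 CPM. Dok2, an adaptor of hematopoietic cells, gave 11.4 against 0.517 CPM, and Grap, an adaptor of the GRB2 family, 23.8 against 1.20 CPM. Gem, a small GTPase that limits calcium channels, gave 26.1 against 0.952 CPM. After thinning to 10000 UMIs, Lcp1 was detected in 42.2% of rule-gene cells and 0.253% of rule-negative cells, and Pitpnc1 in 45.5% and 2.97%.

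Mmp3 (stromelysin-1, a matrix protease) was the leading gene with the most uneven spread. It gave 38.0 CPM against 0.680 CPM, but was detected in 25.6% of rule-gene cells, and 57.4% of its 693 UMIs lay in 32 cells with up to 28 each. The same 32-cell share was 21.6% for Lcp1 and 28.4% for Pitpnc1.

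**Figure D2:**
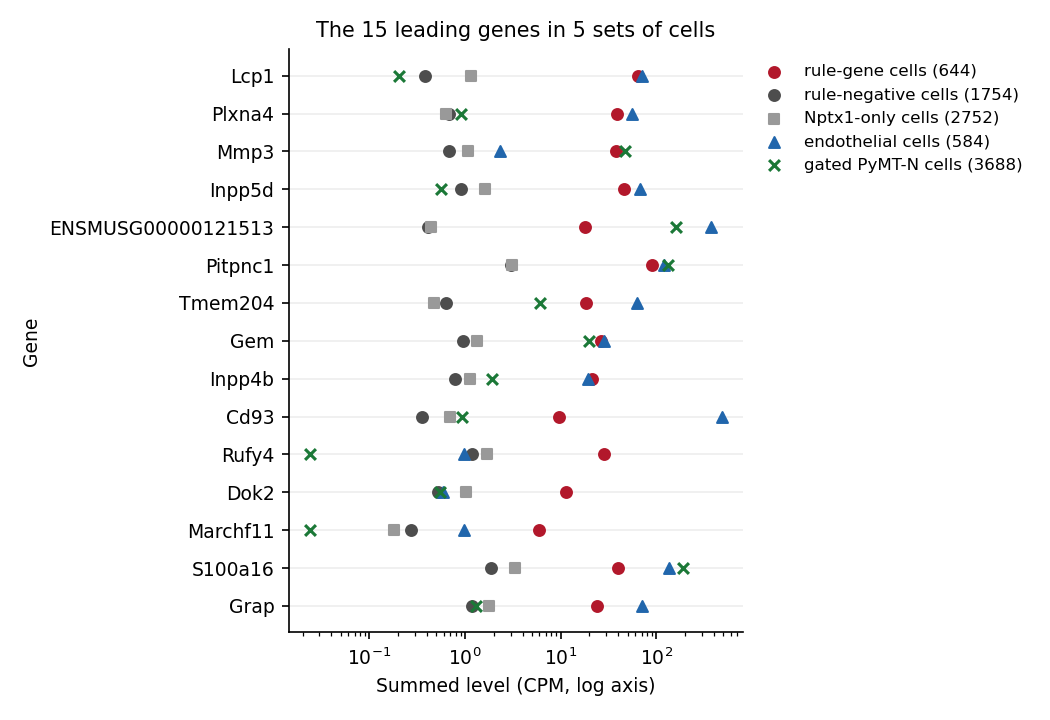
Summed level (CPM, logarithmic axis) of the 15 leading genes in rule-gene, rule-negative, Nptx1-only and endothelial cells of the PyMT-M library and in gated PyMT-N cells. Rule-gene cells lie at least 11.2-fold above both PyMT-M references for each gene, and endothelial or PyMT-N cells reach or pass them for several genes.

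The promoters of the 4 highest-ranked leading genes with an entry in the promoter table are printed because these genes were high together. Of the 15 leading genes 8 had an entry. The sequences are the 250 bases before the start of each gene, 5′ to 3′ on the strand of the gene, from RefSeq (GRCm38.p6). Capitals mark matches on either strand to TGANTCA, the letters that AP-1 factors bind, and AGGAAG, a core of the kind that ETS factors bind. The 2 motifs share no letters in these promoters.
Lcp1: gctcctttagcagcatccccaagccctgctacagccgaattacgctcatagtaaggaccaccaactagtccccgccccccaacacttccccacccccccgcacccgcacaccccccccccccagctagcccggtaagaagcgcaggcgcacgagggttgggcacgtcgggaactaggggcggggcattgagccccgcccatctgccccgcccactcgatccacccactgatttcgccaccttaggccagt
Mmp3: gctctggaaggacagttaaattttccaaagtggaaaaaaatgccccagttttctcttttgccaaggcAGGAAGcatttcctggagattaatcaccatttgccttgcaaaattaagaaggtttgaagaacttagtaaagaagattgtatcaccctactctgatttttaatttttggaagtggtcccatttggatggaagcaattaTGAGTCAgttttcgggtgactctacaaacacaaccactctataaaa
Inpp5d: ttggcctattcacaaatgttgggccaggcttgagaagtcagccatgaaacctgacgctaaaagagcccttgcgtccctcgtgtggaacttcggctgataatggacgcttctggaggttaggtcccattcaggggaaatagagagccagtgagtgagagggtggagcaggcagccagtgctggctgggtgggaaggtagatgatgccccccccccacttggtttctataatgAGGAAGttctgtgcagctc
Pitpnc1: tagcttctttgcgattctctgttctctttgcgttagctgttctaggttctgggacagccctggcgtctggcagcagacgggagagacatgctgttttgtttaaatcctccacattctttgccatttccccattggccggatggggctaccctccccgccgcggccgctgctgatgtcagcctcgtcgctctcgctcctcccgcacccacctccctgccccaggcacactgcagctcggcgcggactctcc
The promoter of Mmp3 held 1 match to each, that of Inpp5d held 1 match to AGGAAG, and those of Lcp1 and Pitpnc1 held neither. TGANTCA occurred in 6.75% of 32851 promoters of this length and AGGAAG in 29.5%. Of the 133 genes with an entry among those at least 4-fold higher in rule-gene cells, 11.3% and 46.6% held them. The 32851 promoters are not limited to genes with enough UMIs to compare, as the 133 are. The shares thus come from unlike sets, and nothing is read from their difference. A match is a description of letters and not a binding site.

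Some genes higher in rule-gene cells were also higher in endothelial or immune cells. Of 144 genes at least 4-fold higher in rule-gene cells with at least 10 UMIs in the reference, 29 were also at least 4-fold higher in endothelial cells alone, 28 in immune cells alone, 38 in both and 49 (34.0%) in neither. Of all 12450 genes with that many UMIs, 89.8% were in neither. Of the 83 genes at least 4-fold lower in rule-gene cells, 61.4% were in neither. The difference from all genes was not confined to the higher genes, so no sharing particular to them is read. Over all genes compared, 1.56% were at least 4-fold higher and 0.664% at least 4-fold lower in rule-gene cells, and over Nptx1-only cells 1.15% and 0.377%. Lcp1 was at 651 CPM in immune cells and 70.9 CPM in endothelial cells, and Inpp5d at 199 and 67.0 CPM. Cd93 and Tmem204 were mainly endothelial genes, at 485 and 62.1 CPM in endothelial cells. Rufy4, Marchf11 and Mmp3 were under 5 CPM in both cell types, where rule-gene cells had 28.7, 5.92 and 38.0 CPM.

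Most leukocyte genes of the gate and of the marker lists were at or near 0. Other genes high in immune cells, such as Lcp1 and Inpp5d above, were not. The gate allows at most 1 UMI of Ptprc (CD45), Tyrobp and Laptm5 per cell, and 3, 3 and 12 UMIs were present in all 644 cells, against 7, 7 and 2 in the 1754 rule-negative cells. These are counts of gate genes, from which no difference is read. Of the myeloid markers outside the gate, Itgam had 1 UMI, Csf1r 1 and Adgre1, C1qa, C1qb and C1qc none, and Lyz2 stood at 0.658 CPM against 5352 CPM in immune cells. The summed level of the 12 myeloid markers was 36.6 CPM in rule-gene cells, 6.04 CPM in rule-negative cells and 12826 CPM in immune cells. S100a8, an inflammatory calgranulin, made up 19.7 CPM of it, without its partner S100a9 (0.493 CPM). Cd68 (12.1 against 1.96 CPM) and Cd14 (3.12 against 0.435 CPM) were also at higher levels. Cd14 had enough UMIs to compare only through the rule-gene cells, and 8 of the 12 markers had too few, so no count is given as a result. Lymphocyte markers summed to 3.12 CPM and erythroid markers to 2.41 CPM. Of the platelet markers, Pf4 had 19 UMIs and Gp9 18, against 2 and 6 in rule-negative cells.

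Further genes were higher without reaching 10 UMIs in the reference, and are named after their values were seen. Cxcl1, a neutrophil chemokine, had 546 UMIs against 6, and Hcls1, an actin regulator of leukocytes, 403 against 4. Lilrb4a and Pik3ap1, at 372 and 266 CPM in immune cells, had 99 and 84 UMIs, each against 2 in rule-negative cells. Dpp4, a surface peptidase, had 244 against 2, Lyve1, a hyaluronan receptor of lymphatic vessels, 219 against 7, Sele (E-selectin) 136 against 3 and Cxcr3, a chemokine receptor, 120 against 4. Of these, Cxcl1 was carried by 145 cells, 32 of which held 59.3% of its UMIs, whereas Hcls1 was found in 253 cells with 27.8% in the top 32. Sele and Lyve1 were also uneven, in 85 and 115 cells with 61.0% and 54.3% in the top 32. Dpp4 was found in 191 cells with 29.5% in the top 32.

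Genes of NF-kB signaling were higher in part. Of 12 genes, 6 were at least 1.5-fold higher and 1 lower over rule-negative cells, and 6 and 1 over Nptx1-only cells, with medians of 0.53 and 0.58. Of all genes 8.26% were higher and 9.74% lower over the first reference, and 6.81% and 9.31% over the second. Tnf stood at 14.0 CPM against 1.01 CPM, Traf1, an adaptor of TNF receptors, at 40.9 against 12.6, Icam1 at 11.1 against 5.95, and the inhibitor Nfkbia at 389 against 221. Tnf was detected in 127 of the 644 cells, and 57.3% of its UMIs lay in 32 cells. Birc3, an inhibitor of apoptosis, was the lower one, at 6.96 against 13.8 CPM. Of 9 wound and inflammatory secreted factors with enough UMIs expected from the reference alone, 2 were higher and 4 lower over rule-negative cells, against 6.93% and 10.6% of all genes chosen alike. Cxcl1, Cxcl2 and Csf3 had enough UMIs only through the rule-gene cells and are not in that count. Cxcl2 stood at 4.88 against 0.435 CPM, Csf3 (G-CSF) at 5.76 against 0.517 and the urokinase gene Plau at 11.3 against 1.74. The monocyte chemokine Ccl2 was abundant in both, at 437 and 523 CPM. Csf3 UMIs lay in 41 cells, and 91.4% of them in 32.

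Of the matrix proteases some were higher and some lower, and the protease inhibitor Timp1 was lower over rule-negative cells. Of 8 genes with enough UMIs expected from the reference alone 3 were higher, Mmp3, Adam8 and Mmp9, and 3 lower, Mmp2, Timp1 and Adamts1, over rule-negative cells, with a median log2 ratio of 0.12. Mmp10 and Mmp1a, also at higher levels, had enough UMIs only through the rule-gene cells. Over Nptx1-only cells Mmp3, Adam8 and Mmp9 were higher too, and Mmp2 was the lower one. Mmp9 (gelatinase B) gave 15.8 against 2.56 CPM, Adam8 19.6 against 1.96 CPM, and Mmp2 (gelatinase A) 11.5 against 34.7 CPM. Membrane-bound Mmp14 gave 90.5 and 85.0 CPM. Among genes linked to vasculogenic mimicry, the forming of channels by tumor cells, 2 of 12 were higher and 4 lower over rule-negative cells, counted over genes with enough UMIs expected from these cells alone, which leaves out Vegfc. The shares of all genes chosen alike were 6.93% and 10.6%. Notch4, an endothelial Notch receptor, gave 10.5 against 1.69 CPM, Vegfc 1.43 against 0.381 and Pgf 5.32 against 2.34. The lower genes included Mmp2, Vegfa and F3, and Nodal had no UMI.

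**Figure D3:**
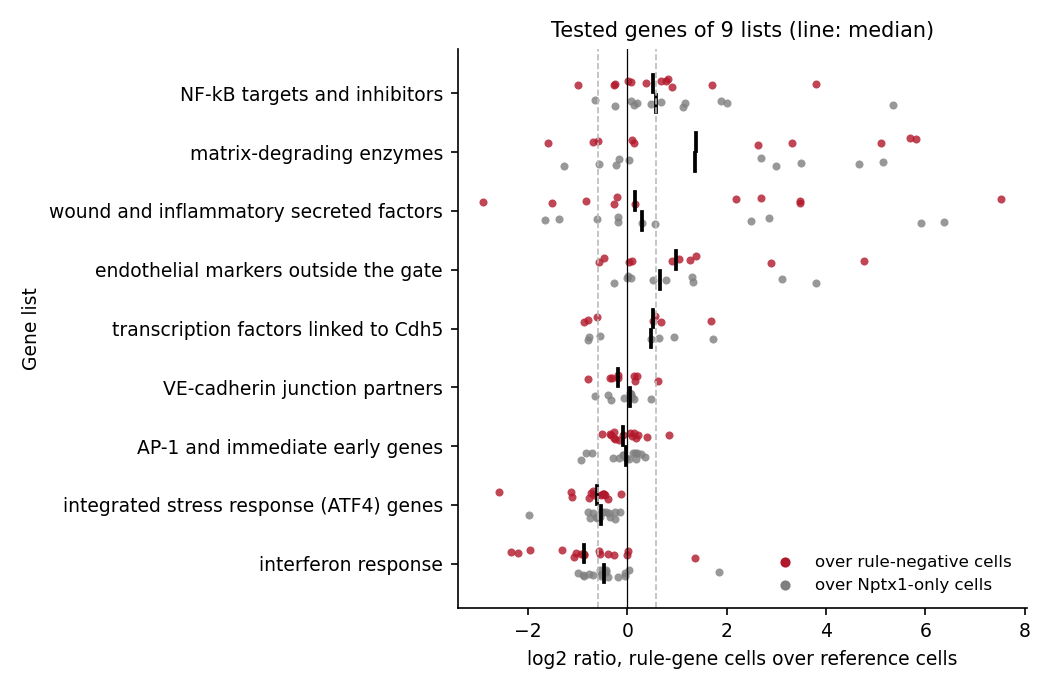
Log2 ratios of the genes compared in 9 lists, for rule-gene cells over rule-negative cells (red) and over Nptx1-only cells (grey), with the list medians as black lines and 1.5-fold either way as dashed lines. Genes that had enough UMIs only through the rule-gene cells are drawn and enter the medians. NF-kB genes spread to the right, and protease genes lie on both sides of 0. The protease median over rule-negative cells is 1.38, and 0.12 without Mmp10 and Mmp1a, which passed only through the rule-gene cells. Likewise the endothelial-marker median is 0.97, and 0.51 over the 8 genes with enough UMIs expected from the reference alone. The median of wound and inflammatory factors is 0.15, and -0.26 over the 9 genes with enough UMIs expected from the reference alone. Interferon and ATF4 genes lie mostly left of 0, with the interferon median moving from -0.87 to -0.48 between references.

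Among the 10 genes lowest in the group were Mgp, Orm1, Apol6, Arsi, Stra6, Gm4841, Ccn2, Mx2 and Rsad2. Mgp, a matrix protein that inhibits calcification, gave 0.548 against 7.04 CPM, but its 259 reference UMIs lay in 13 cells with up to 102 in a cell, and over Nptx1-only cells its log2 ratio was 2.51, the opposite sign. Orm1, an acute-phase plasma protein, was spread over 379 rule-negative cells and gave 2.47 against 15.6 CPM. Stra6, a retinol transporter, gave 2.47 against 13.4 CPM and 6.65 CPM in Nptx1-only cells. Ccn2, a target of YAP and TGF-beta, gave 0.822 against 4.32 CPM. Of these 10 genes, 9 were at least 1.5-fold lower over Nptx1-only cells too, and Mgp was not.

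Some interferon-stimulated genes were lower, more of them over rule-negative cells. Of 16 genes, 9 were lower and 1 higher over rule-negative cells (median -0.87), and 5 lower and 1 higher over Nptx1-only cells (median -0.48). Of all genes 9.74% and 9.31% were lower. Rsad2 (viperin, an antiviral enzyme) gave 18.4 CPM in rule-gene, 92.8 in rule-negative and 36.6 in Nptx1-only cells. Ifit1, which binds viral RNA, gave 29.5, 114 and 53.8 CPM, and the chemokine gene Cxcl10 16.3, 74.3 and 22.0 CPM. Cxcl9 was the higher one, at 5.92 against 2.28 CPM. The class I genes H2-D1 and H2-K1 did not follow, with log2 ratios of 0.01 and -0.01. A few cells held most of these UMIs, with 91.6% of Cxcl10 and 81.5% of Rsad2 UMIs of the group in 32 cells.

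Genes of the integrated stress response, which ATF4 drives when amino acids or folding fail, were lower in part. Of 15 compared 8 were lower and none higher over rule-negative cells, with a median log2 ratio of -0.60, and 6 were lower and none higher over Nptx1-only cells, with a median of -0.52. The shares of all genes were 8.26% higher and 9.74% lower over rule-negative cells, and 6.81% and 9.31% over Nptx1-only cells. They apply to the mesenchymal and pericyte lists of this paragraph too. Nupr1 gave 116 against 250 CPM, the serine synthesis gene Psat1 71.7 against 121 and Slc7a11, a cystine carrier, 0.932 against 2.04. The epithelial keratin Krt8 gave 127 against 315 CPM and Epcam 1.04 against 3.86 CPM, while Wfdc2 was present in both, at 274 and 231 CPM. Esr1, the estrogen receptor gene, was at 1.48 against 0.326 CPM, but had enough UMIs only through the rule-gene cells. Of the mammary epithelial markers, 9 of 16 had no UMI, among them Krt18, Krt14 and Krt5. Of 13 mesenchymal genes 6 were lower and none higher over rule-negative cells, and 2 were lower over Nptx1-only cells. Fn1 was past 1.5-fold higher over Nptx1-only cells, but its 21 against 19 UMIs were too few to compare there. Acta2 gave 133 against 253 CPM, S100a4 621 against 1032 and Snai1 21.2 against 35.6, whereas Zeb1 and Twist1 had log2 ratios of 0.06 and -0.06. Fibroblast markers were 1 higher and 4 lower of 9 over rule-negative cells, without Pi16, which had enough UMIs only through the rule-gene cells. The shares of all genes chosen alike were 6.93% and 10.6%. Over Nptx1-only cells 4 were lower, while Col1a2 (9.21 against 0.731 CPM) and Postn (1.75 against 0.248 CPM) were higher. Dcn was higher too, but its 19 against 15 UMIs were too few to compare there. Pericyte markers were 2 higher and 2 lower of 5 over rule-negative cells, and 2 higher and 1 lower over Nptx1-only cells. The reference UMIs of the pericyte gene Rgs5 (176) and the actin-binding gene Tagln (151) lay in 4 and 7 cells.

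Proliferation genes were close to both references. None of the 18 S-phase and 18 G2/M genes passed 1.5-fold over either, with medians of -0.19 and -0.13 over rule-negative cells. Of 15 AP-1 and immediate early genes 1 was higher, Fos, at 5.10 against 2.85 CPM, and none lower over rule-negative cells. Over Nptx1-only cells none was higher and 3 were lower, Fosb, Egr1 and Egr3, at log2 ratios of -0.82, -0.93 and -0.70, and Fos had a log2 ratio of 0.12. Fosl1, which is prominent in invasive tumors, was at 209 CPM in rule-gene and 200 CPM in rule-negative cells. MAPK output genes were 2 higher, Spry4 and Areg, and 1 lower, Etv5, of 15 over rule-negative cells, and 1 higher and 1 lower over Nptx1-only cells, where Areg changed sign (72.3 against 92.4 CPM, log2 ratio -0.35). The shares of all genes were 8.26% higher and 9.74% lower over rule-negative cells, and 6.81% and 9.31% over Nptx1-only cells. Nothing is read from the AP-1 and MAPK counts. Over rule-negative cells, hypoxia and glycolysis genes were 2 lower of 16, p53 targets 1 lower of 13, heat-shock genes 1 lower of 8, and integrins and laminins 2 lower of 12, with none higher. Of all genes compared 9.74% were lower, and nothing is read from these few counts. Over Nptx1-only cells the hypoxia list and the integrin list each had 1 higher and 2 lower, the p53 list 1 lower and the heat-shock list 2 lower. TGF-beta output genes were 2 higher and 5 lower of 13 (8.26% and 9.74% of all genes), among the latter Ccn2, Ccn1 and Tgfbi, and over Nptx1-only cells 1 was higher and 2 lower. Trophoblast markers were 2 lower of 3, Schwann and neural markers 1 higher (Ncam1, 8.61 against 1.28 CPM) and 1 lower of 5, and other cadherins 2 lower of 3. Over Nptx1-only cells these were 2 lower, 1 higher with none lower, and 1 lower. Cdh11 changed sign, from a log2 ratio of -1.21 over rule-negative cells to 1.41 over Nptx1-only cells. Its 6 against 9 UMIs were too few to compare over the latter.

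The rule-gene cells with and without Gm43154 differed in the leading genes. These 15 genes were chosen as the highest ratios of the same 644 cells over the same rule-negative cells, and most of the 644 carry Gm43154, so the counts below describe that choice and support nothing further. At least 5 of the 15 leading genes were detected in 409 of the 644 cells (63.5%), in 1 of 1754 rule-negative cells and in 19 of 2752 Nptx1-only cells (0.690%). Of 520 rule-gene cells with Gm43154, 401 did so (77.1%, interval 73.3 to 80.7%), and of 124 without it 8 did (6.45%, interval 2.83 to 12.3%). The median depth was 25832 UMIs with Gm43154 and 29280 without it, and the part of depth was not tested. Among cells with Cdh5 and Nptx1 alone, 7.25% of 69 held at least 5 leading genes, and 86.2% of 159 when Gm43154 was added. Cells with all 4 rule genes reached 98.0% (50 of 51). Lcp1 stood at 79.7 CPM with Gm43154 and 3.13 CPM without, and Mmp3 at 47.5 and 2.35 CPM. Cdh5 was at 24.99 and 22.7 CPM, and detected in 42.5% and 59.7% of cells. Cells without Gm43154 must hold at least 2 of the other 3 rule genes, so nothing is read from these Cdh5 values. Against the rule-negative cells, 3.03% of 10304 genes were at least 1.5-fold higher and 3.48% lower in the 124 cells without Gm43154, with 0.0582% and 0.107% at least 4-fold. In the 520 cells with it, 9% of 12173 genes were higher and 13% lower, with 1.67% and 1.4% at least 4-fold. At the edge of the rule, 0.991% of cells with exactly 1 rule gene and 46.1% of cells with exactly 2 held at least 5 leading genes. Conversely, of 438 gated cells with at least 5 leading genes, 401 were rule-gene cells with Gm43154, 8 were rule-gene cells without it, 28 had 1 rule gene and 1 had none.

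**Figure D4:**
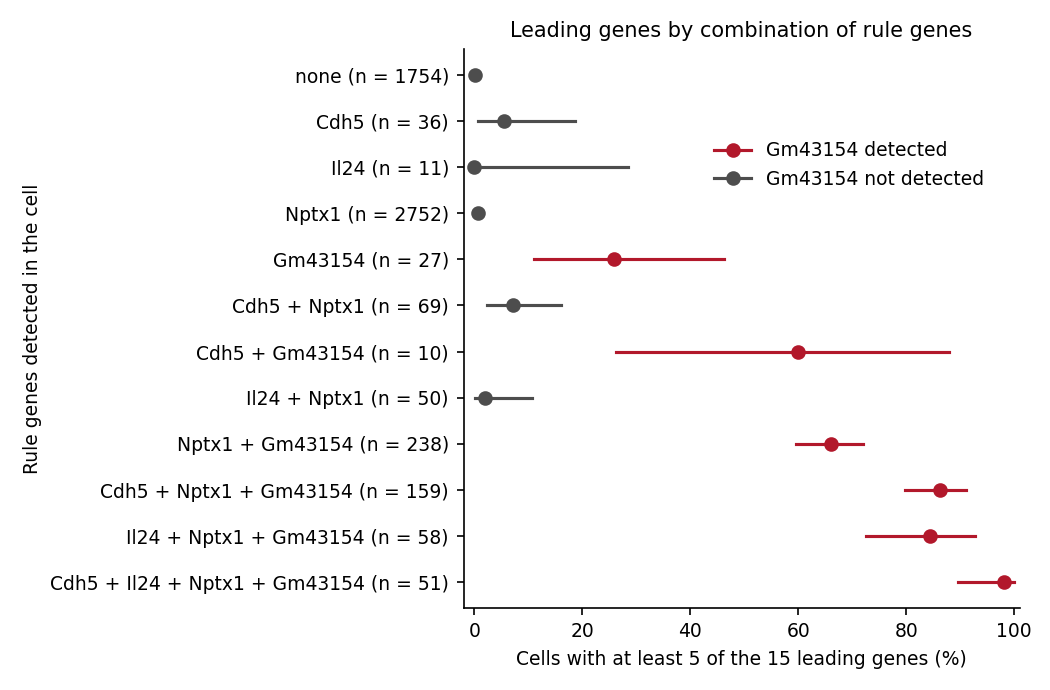
Percentage of gated PyMT-M cells with at least 5 of the 15 leading genes detected (points, with exact 95% counting intervals), by the combination of rule genes in the cell, for combinations with at least 10 cells. Combinations with Gm43154 (red) reach 60.0 to 98.0% where a second rule gene is present, and those without it (grey) stay at 7.25% or less.

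Within the 520 cells with Gm43154, cells with and without Cdh5 or Il24 differed less than 1.5-fold in Lcp1. Cells with Cdh5 (221) had Lcp1 at 91.7 CPM and cells without (299) at 70.2 CPM. At least 1.5-fold, 2.81% of 10985 genes were higher and 3.56% lower with Cdh5. Col1a1 was highest among them, at 16.3 against 3.12 CPM (log2 ratio 2.39, interval 1.75 to 3.08), followed by Igfbp7, a secreted protein abundant in tumor vessels, at 5.96 against 1.25 CPM. Both ratios rest on few cells, since Col1a1, with 104 and 25 UMIs, was detected in 5.77% of the 520 cells and Igfbp7, with 38 and 10, in 5.58%. Cxcl10 was lowest, at 5.49 against 27.7 CPM (log2 ratio -2.33), with Rsad2 at 7.37 against 23.9 and Ifit1 at 13.0 against 37.0, and these were detected in 8.46%, 10.6% and 18.5% of the 520 cells. With Il24 (113 cells, against 407 without), 2.71% of 10239 genes were higher and 4.13% lower. Ccbe1, a matrix protein of lymphatic growth, gave 12.9 against 1.57 CPM, Csf3 16.8 against 4.16, Cxcl9 15.1 against 4.16 and Tmem40 72.6 against 22.3, while Mmp3 was lower, at 23.2 against 55.5 CPM. Ccbe1, Csf3 and Cxcl9 were detected in 4.23%, 7.88% and 4.42% of the 520 cells and Tmem40 in 41.7%. In summed counts, cells with Il24 were thus lower in Mmp3, and cells with Cdh5 higher in it, at 60.8 against 36.9 CPM. Mmp3 was detected in 30.4% of the 520 cells, and 57.4% of its UMIs in the 644 rule-gene cells lay in 32 cells. The median depth was 30062 UMIs with Il24 and 24602 without it, and 26472 and 24666 with and without Cdh5. Nothing further is read from these Mmp3 values.

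Relative to Nptx1-only cells, the cells with Gm43154 also had a lower median over the genes of chromosome 16. Gene positions were taken by chromosome from GENCODE M21, which lists 31961 of the 33696 gene identifiers, and genes with at least 200 UMIs over rule-gene and rule-negative cells were used. Over Nptx1-only cells, the 327 genes of chromosome 16 had a median log2 ratio of -0.44 in cells with Gm43154 (quartiles -0.63 and -0.22), against -0.12 over all 9922 genes, and 88.4% of them were below 0. Chromosome 7 was next, at -0.21. In rule-gene cells without Gm43154 the median of chromosome 16 was -0.00029. For all rule-gene cells over rule-negative cells, the medians of chromosomes 16, 12 and 13 were -0.23, -0.22 and -0.18. Chromosome 16 did not stand apart in that comparison. Nptx1-only cells in turn differed from rule-negative cells over chromosomes 3, 6, 11 and 16, with medians of 0.10, 0.13, 0.14 and 0.10, and over chromosomes 12 and 18, at -0.14 and -0.15, against 0.0022 over all genes. Nptx1 itself lies on chromosome 11 and Gm43154 on chromosome 6. DNA was not measured, and the genes of a chromosome are not independent replicates.

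**Figure D5:**
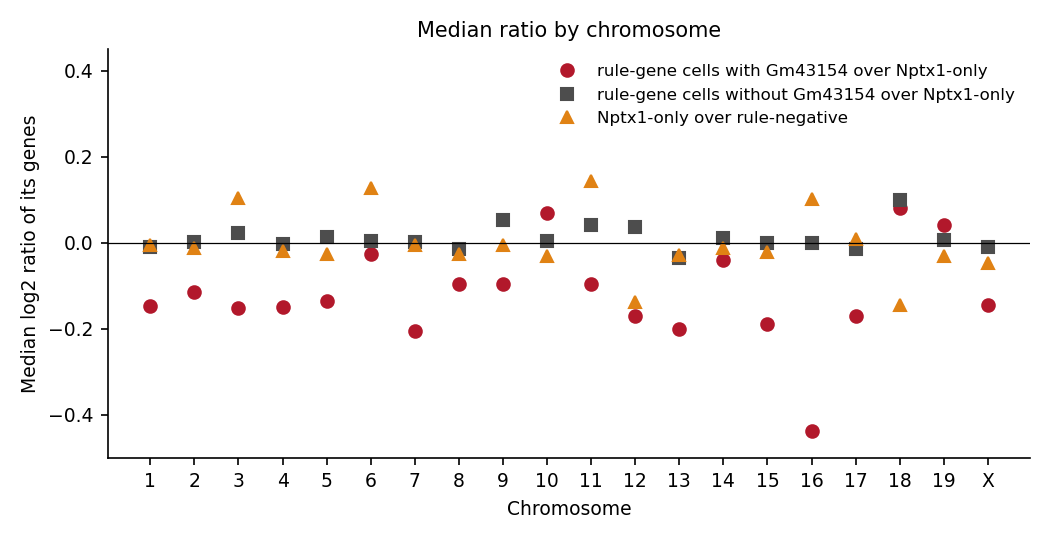
Median log2 ratio of the genes of each chromosome in rule-gene cells with Gm43154 (circles) and without it (squares) over Nptx1-only cells, and in Nptx1-only over rule-negative cells (triangles). Chromosome 16 lies at -0.44 in the first comparison and near 0 in the second, and chromosomes 3, 6, 11 and 16 lie at 0.10 to 0.14 in the third.

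In PyMT-N, the other model, the rule genes were near 0 but several leading genes were not. Gated PyMT-N cells gave 0.0119 CPM of Gm43154, 0.0474 of Il24, 0.462 of Nptx1 and 1.99 of Cdh5. Lcp1, Rufy4 and Marchf11 were at 0.201, 0.0237 and 0.0237 CPM. S100a16, a calcium-binding protein, was at 188 CPM, Pitpnc1, a lipid transfer protein, at 133 CPM and Mmp3 at 46.6 CPM, each above its level in rule-gene cells. At least 5 leading genes were detected in 9.16% of the 3688 cells. With 1 pooled library per model, the model, the library and its handling cannot be told apart.

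Outside the gate, 147 PyMT-M barcodes held at least 2 rule genes, 138 of them with more than 1 endothelial gate UMI, 9 with more than 1 immune UMI, 16 with under 2000 detected genes and 1 with over 10% mitochondrial UMIs, some for several reasons. Among gated cells with no UMI of Pecam1, Emcn, Flt1 or Kdr, Cdh5 was detected in 37.1% of cells with at least 2 of the other rule genes (190 of 512), close to the 38.1% above. The share of rule-gene cells that were among the 6% of barcodes with the highest doublet scores was 9.32%, against 6.61% of rule-negative cells, and the part of doublets in the results was not tested beyond leaving these barcodes out.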

How the data were processed

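Endothelial-enriched cells of PyMT-M and PyMT-N tumors were profiled by droplet-based single-cell RNA sequencing (10x Genomics 3′ chemistry), with 3 tumors pooled per library and 1 library per model. Values deposited by the authors are raw UMI counts for each gene in each barcode, made with Cell Ranger 8.0.0 on mm39 per the submitters' processing notes. Sources differ on the dissociation enzyme (collagenase I in the labels, collagenase II with dispase II in the methods).

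Counts were summed over cells and expressed as CPM. A gene was compared where at least 10 UMIs were expected in rule-gene cells at equal level, from both sets pooled. List counts over Nptx1-only cells cover the genes compared over rule-negative cells, so some genes had fewer UMIs expected there. The shares of all genes over Nptx1-only cells were filtered on those cells. For lists with genes that passed only through the rule-gene cells (189 of 12501 genes in all), counts use genes with 10 UMIs expected from the reference alone. Rule and gate genes were not compared. Log2 ratios have exact intervals of a ratio of Poisson counts and shares have Clopper-Pearson intervals, both at 95%. With 1 library per model no test was run, and a gene was called higher or lower past 1.5-fold. Named genes were the rule and gate genes, the 15 highest and 10 lowest ratios with at least 10 UMIs in both sets, the endothelial markers, up to 3 highest and 3 lowest of each of 34 lists, and the neighbours of the rule genes. Some genes that this rule names are not reported here. Members and lists were chosen with earlier results of these data known. Chromosomes, neighbours and promoters come from GRCm38 tables, not from mm39, so no coordinates are given. Reads shared by near-identical genes could be split or lost in counting, and strand-overlapping genes such as Gm13848 are uncertain.

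Scrublet in scanpy 1.11.5 called 1 barcode (0.0128%), so its threshold did not work and cells were not removed. Leaving out the 6% with the highest scores was an alternative. The Nptx1-only reference and the split by Gm43154 were chosen after seeing the data. Sums and intervals were computed with scipy 1.17.1 and numpy 2.4.6 under Python 3.11.15, tables with pandas 2.3.3 and plots with matplotlib 3.10.9.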

Additional observations from a re-analysis of the deposited data

How the results depend on the processing

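No paired analysis was possible because each model has 1 library. The share of gated cells that met the rule was 12.3% and stayed between 12.0% and 12.6% with at least 1000 genes, at most 2 times the median of genes, at most 5% mitochondrial UMIs, no endothelial gate UMI, or the highest doublet scores left out. It was 5.23% when 3 rule genes were required and 8.20% after thinning to 10000 UMIs. The number of genes past 1.5-fold was 2250, and became 1246 with 50 UMIs expected, 4830 with 1 UMI expected, 1044 at 2-fold and 671 in rule-gene cells without Gm43154. The split by Gm43154 and the Nptx1-only reference were chosen after seeing the data. With 10 UMIs expected from the reference alone, also chosen after seeing the data, 861 genes were higher and 1317 lower. Other settings gave 1888 to 2674. Among gated cells with at least 2 of the other 3 rule genes, the share with Cdh5 was 38.1%, and 20% after thinning. It was 46.8% where all of the other rule genes were detected. The median depth was 26318 UMIs and 26272 without the highest doublet scores. Of the 25 genes with the largest ratios, 1 changed sign, Mgp, at 2.51 over Nptx1-only cells. Ratios moved past their counting intervals for 22 of the 25 in rule-gene cells without Gm43154, where Lcp1 went from 7.38 to 3.04 and Inpp4b from 4.76 to 0.73, for 15 over Nptx1-only cells, for 12 of 23 in cells low in S and G2/M genes and for 10 of 24 with 3 rule genes required. Without mitochondrial and ribosomal-protein genes in the total, 1182 genes were higher and 1055 lower, in place of 1032 and 1218. Depth limits the comparison of rare transcripts, since 1 UMI in all rule-gene cells is 0.0548 CPM.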
